A study of Mus musculus with 8 samples.

Results

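The replication-dependent histone genes were taken as every gene symbol in the deposited tables that begins with Hist1h, Hist2h, Hist3h or Hist4h. This rule found 70 genes among 51822 entries, comprising 6 genes for the linker histone H1, 20 for H2A, 19 for H2B, 12 for H3 and 13 for H4. All 70 were found in the mouse annotation (GRCm38), with 56 in the Hist1 cluster on chromosome 13, 10 in Hist2 on chromosome 3, 3 in Hist3 on chromosome 11 and 1 (Hist4h4) on chromosome 6. The libraries were made from total RNA of mouse osteoblast progenitors, which the sample labels call MC3T3-E1 cells (an osteoblastic cell line from mouse calvaria) and the study's methods call cultured calvarial cells. All cells grew in osteogenic medium with ascorbic acid, dexamethasone and β-glycerophosphate, and received either DMSO as vehicle (control) or 1 μM LAMZ (locamidazole, an aminoindazole derivative), until harvest on day 7 or day 14. Each of the 4 groups had 2 libraries, and nothing in the labels says that these came from separate cultures, so that the p-values below measure only the spread between these libraries, which may be technical.

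Replication-dependent histone genes supply the proteins that package newly copied DNA, and their mRNAs accumulate during S phase, the part of the cell cycle in which DNA is replicated. Most of these mRNAs carry no poly(A) tail and end just after a short stem-loop, which is bound by the stem-loop binding protein (Slbp) and guides processing by the U7 snRNP. Replacement histones, such as those of the H3f3 and H1f0 genes, are encoded by separate polyadenylated mRNAs and are made outside S phase as well. Some genes of the replication-dependent clusters can also end in a poly(A) tail.

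The stem-loop is shown because most mRNAs of this class end just after it and carry no poly(A) tail. Whether a library selected on poly(A) would hold an mRNA depends on that tail. The histone stem-loop, searched as 16 bases whose first and last 6 pair around a 4-base loop that begins with T bases, was found on the transcript strand of 44 of the 70 genes in the GENCODE M21 models and of 50 of all 55341 annotated genes (0.0903%). Where it was not found, this says only that these letters are not in the annotated models. The 16 bases of the motif are in capitals below, with flanking bases in lower case, 5′ to 3′ as transcribed.
Hist1h1c: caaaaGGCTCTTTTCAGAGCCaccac
Hist1h2bf: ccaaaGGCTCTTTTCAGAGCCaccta
Hist1h2bb: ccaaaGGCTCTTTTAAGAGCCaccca
Hist1h4d: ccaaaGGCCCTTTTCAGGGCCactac
Hist2h4: ctaacGGCCCTTTTTAGGGCCaacca
Hist1h4b: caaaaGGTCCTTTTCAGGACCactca
The loop of Hist1h1c lies at chr13:23739512-23739527, that of Hist1h2bf at chr13:23573765-23573780 and that of Hist1h2bb at chr13:23747203-23747218. Those of the H4 genes Hist1h4d, Hist1h4b and Hist2h4 lie at chr13:23581950-23581965, chr13:23757366-23757381 and chr3:96262939-96262954 (GRCm38; Hist1h2bf and Hist2h4 on the minus strand). The form shared by Hist1h1c and Hist1h2bf was carried by 26 genes of the H1, H2A, H2B and H3 classes, and that of Hist1h2bb by 6 genes of H1, H2B and H3. The forms of Hist1h4d, Hist2h4 and Hist1h4b were found in 7, 2 and 2 genes, all of them H4 genes.

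Promoters are shown for 3 genes whose levels moved differently in these cultures, as described below: Hist1h2bb (chr13:23746484-23746733, plus strand) and Hist1h2bf (chr13:23574208-23574457, minus strand), which were lower at day 14, and Hist1h1c (chr13:23738557-23738806, plus strand), which was not. Each line holds the 250 bases before the RefSeq start (GRCm38.p6). Capitals mark the letters CCAAT of the box of that name, the letters TATAAA known as a TATA box, and the octamer ATTTGCAT, each searched on both strands and counted whether or not it overlapped another. These letters are a description of the sequence and not evidence of a bound factor.
Hist1h2bb: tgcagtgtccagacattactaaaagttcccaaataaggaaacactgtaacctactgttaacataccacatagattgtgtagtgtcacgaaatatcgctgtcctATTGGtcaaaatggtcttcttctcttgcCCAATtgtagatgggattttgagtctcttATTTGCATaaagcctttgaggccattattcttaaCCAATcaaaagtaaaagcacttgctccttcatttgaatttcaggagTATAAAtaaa
Hist1h2bf: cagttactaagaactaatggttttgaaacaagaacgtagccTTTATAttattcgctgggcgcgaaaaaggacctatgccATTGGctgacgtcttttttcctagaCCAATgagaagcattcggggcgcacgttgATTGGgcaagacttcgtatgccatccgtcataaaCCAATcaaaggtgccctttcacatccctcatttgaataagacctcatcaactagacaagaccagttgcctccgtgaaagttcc
Hist1h1c: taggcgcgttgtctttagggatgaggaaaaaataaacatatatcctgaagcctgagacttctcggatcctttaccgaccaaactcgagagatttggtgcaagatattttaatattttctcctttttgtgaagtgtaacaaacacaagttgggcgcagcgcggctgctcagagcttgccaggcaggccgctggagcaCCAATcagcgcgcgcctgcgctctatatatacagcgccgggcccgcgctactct
RefSeq promoters were matched for 62 of the 70 genes. CCAAT was found in 51 of the 62 (82.3%) against 33.8% of all 32851 promoters, TATAAA in 29 (46.8%) against 12.4%, and the octamer in 13 (20.97%) against 1.60%. The octamer was found in 7 of 18 H2A and 6 of 16 H2B promoters and in none of the H1, H3 and H4 promoters. The 250 bases of some H2A and H2B neighbours on opposite strands overlap, as for Hist1h2ae and Hist1h2bg. A site in such an overlap was counted for both genes, so that promoters with a motif outnumber separate sites. H4 promoters held CCAAT in 3 of 12.

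Expression was given as RPKM, in which read numbers are divided by gene length and by sequencing depth. The libraries held between 3463538 and 5832101 mapped reads, as recovered from the RPKM of genes with a single read, and between 6475 and 14187 of these fell on the 70 histone genes. This was 0.129% (95% Wilson interval, 0.126 to 0.132) of mapped reads in the library with the smallest share, a LAMZ library of day 14, and 0.272% (0.268 to 0.277) in that with the largest, a LAMZ library of day 7. The intervals cover counting error only. The RNA of the signal recognition particle, Rn7s1, which has no poly(A) tail, stood at 51877 to 144107 RPKM and made up 18.1% to 33.7% of the RPKM sum of a library. Because closely related copies are common in these clusters, more than 50% of the 50-base windows of 36 of the 70 genes recurred in transcripts of other genes, and the split of reads among such copies is uncertain.

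Among H1 genes, the highest mean level over the 8 libraries was that of Hist1h1e (201 RPKM), followed by Hist1h1d (132) and Hist1h1c (131). Hist2h2aa2 (136), Hist1h2ab (54.0) and Hist2h2aa1 (34.9) led the H2A genes, and Hist1h2bb (172), Hist1h2bg (153) and Hist1h2bj (98.6) the H2B genes. Levels were lower for H3 genes, with Hist1h3c at 73.8 RPKM, Hist1h3i at 50.3 and Hist1h3b at 39.5. The highest level of any histone gene was that of the H4 gene Hist1h4d (241), ahead of Hist1h4n (162) and Hist1h4c (159). Within each class, the ranges of neighbours in this order overlapped over the 8 libraries. Hist1h2aj and Hist1h2ba, the latter known as a testis histone, were listed at 0 in every library. With these, 5 further genes (Hist1h2aa, Hist1h2al, Hist1h2bq, Hist2h2be and Hist3h2bb-ps) stayed below 1 RPKM in all or all but 1 library, which left 63 for testing.

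Histone mRNA was lower at day 14 than at day 7 in both cultures. In control culture the summed RPKM of the 70 genes was 4198 and 3859 at day 7 and 2147 and 2362 at day 14, and in LAMZ culture it was 4734 and 4867 at day 7 and 2038 and 2336 at day 14. In both cultures every library of day 14 lay below every library of day 7. The mean at day 14 was 0.560 times that at day 7 in control culture and 0.455 times in LAMZ culture. In bulk RNA, fewer cells in S phase and less histone mRNA per cell cannot be told apart.

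**Figure D1:**
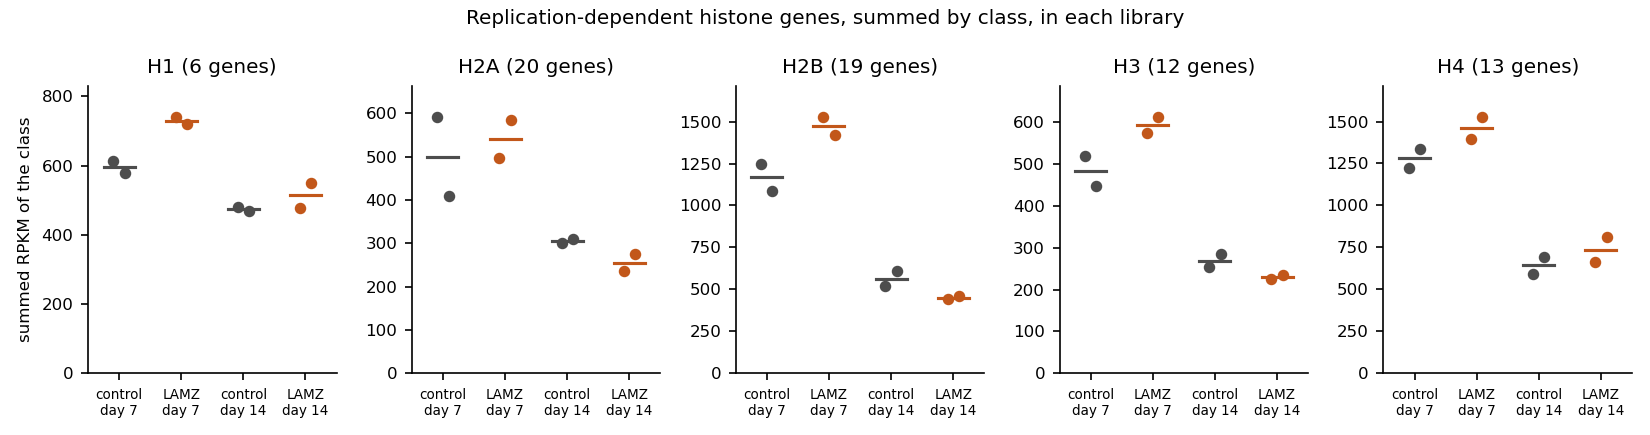
Summed RPKM of each histone class (vertical axes, from 0) in the 8 libraries, with control in grey and LAMZ in orange, points for libraries and bars for the mean of 2. In each class the day 14 libraries lie below those of the same culture at day 7.

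The size of the fall differed among the classes. In control culture the ratio of day 14 to day 7 was 0.796 for H1, 0.610 for H2A, 0.482 for H2B, 0.558 for H3 and 0.502 for H4. In LAMZ culture it was 0.704 for H1, 0.473 for H2A, 0.306 for H2B, 0.387 for H3 and 0.504 for H4. The summed H2B level, for example, was 1249 and 1087 RPKM at day 7 and 518 and 608 at day 14 in control culture, and 1529 and 1422 falling to 441 and 462 in LAMZ culture. The H1 sum was 613 and 580 at day 7 and 481 and 468 at day 14 in control culture. It holds Hist1h1c, which moved the other way, from a mean of 89.8 to 137 RPKM in control and from 120 to 179 in LAMZ culture. These ratios are descriptions of sums, with no test of the classes against each other.

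Gene by gene, 24 of the 63 tested histone genes were lower at day 14 than at day 7 in control culture and none was higher, by limma at an adjusted p under 0.05. Among all 12514 genes tested, 4.86% were called, 2.4% lower and 2.46% higher. At an unadjusted p under 0.05, 39 were lower (12.3% of all genes) and 1 was higher (9.5%), and voom on recovered reads called 31 lower (4.67% of all genes) and 1 higher (4.2%). In LAMZ culture 34 were lower and 1 was higher, where 14.4% of all genes were called, 9.26% lower and 5.1% higher. The 34 include Hist1h4m, which passed the filter only through the LAMZ libraries of day 7. The lower calls comprised 3 of 6 H1, 3 of 17 H2A, 8 of 15 H2B, 5 of 12 H3 and 5 of 13 H4 genes in control culture, and 4, 5, 12, 8 and 5 in LAMZ culture. The median log2 fold change of the 63 genes was -0.81 in control culture and -1.06 in LAMZ culture, where the medians of all genes were -0.05 and -0.11. The day 14 libraries lay wholly below those of day 7 for 47 genes in control culture (28.5% of all genes) and for 51 in LAMZ culture (41.4%).

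The calls in the control culture depended on single libraries. They numbered 2 without replicate 1 of control at day 14, 9 without replicate 2 of that group or without replicate 1 of control at day 7, 13 without either LAMZ library of day 7 and 15 without either of day 14. The number below 0 stood at 52 to 56 of 63 under the 4 other scalings tried, and at 56 in LAMZ culture under each. The genes lower in both cultures numbered 22, or 91.7% of those called in control and 64.7% of those called in LAMZ culture. Of the other genes, 175 (1.41%) were lower in both. The 2 comparisons share no library but take the spread of each gene from all 8 libraries, so their calls are not independent. Fitted on its own 4 libraries, control culture gave 0 calls among all genes.

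**Figure D2:**
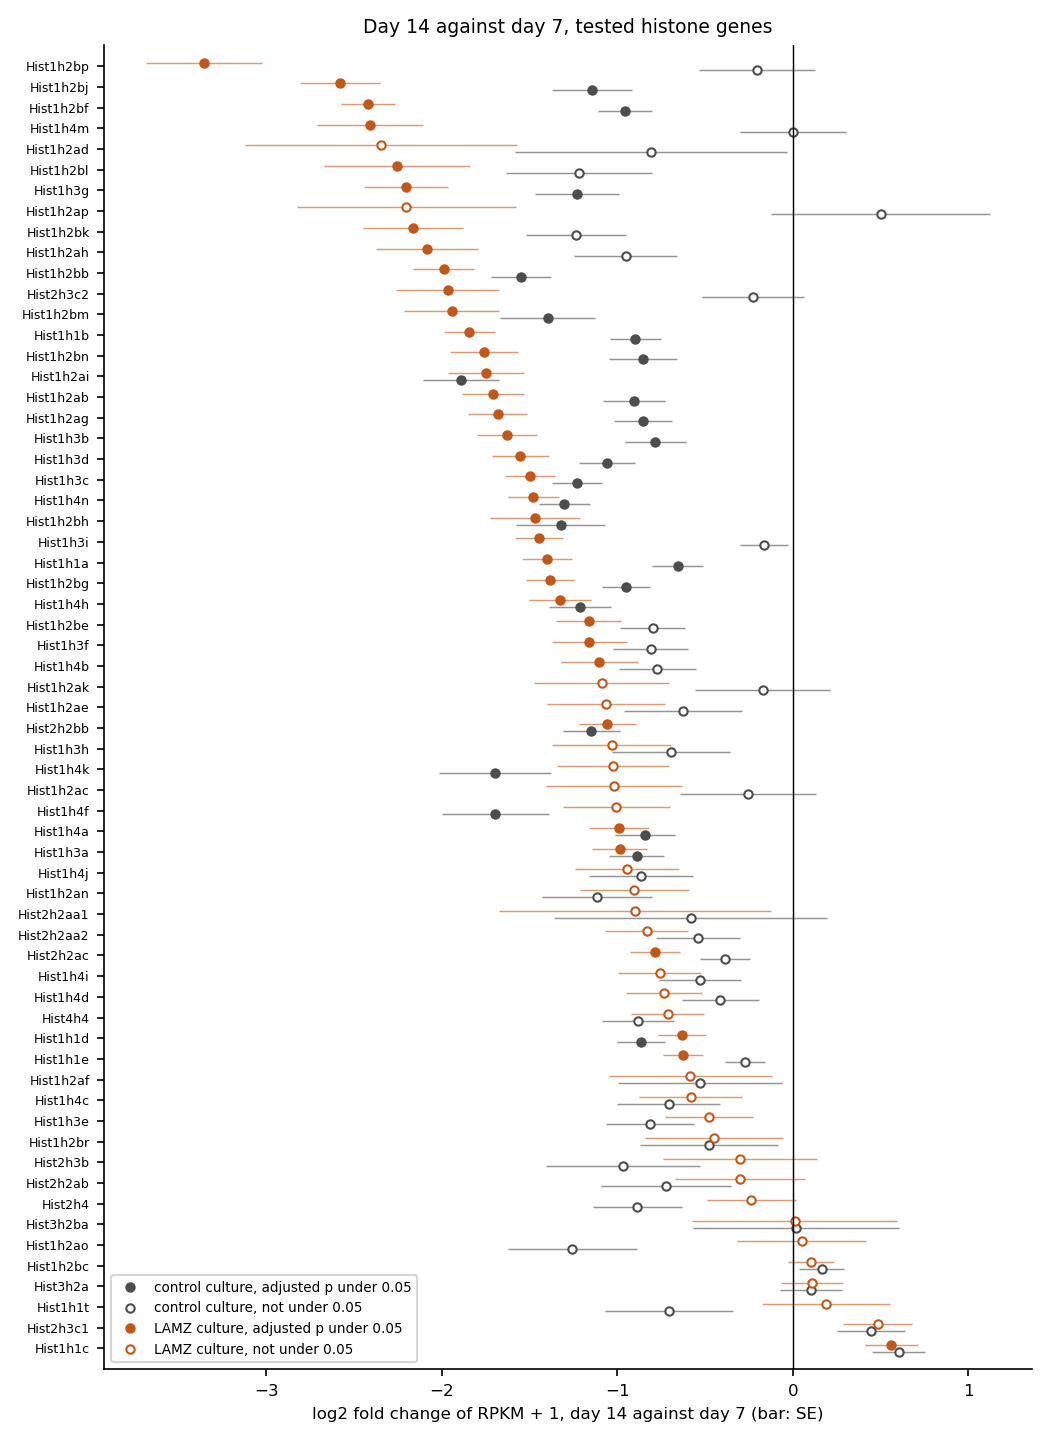
Log2 fold change from day 7 to day 14 (horizontal axis; bars, SE) of the 63 tested histone genes in control (grey) and LAMZ culture (orange), ordered by the value in LAMZ culture. Filled points passed an adjusted p of 0.05; most lie left of 0, with Hist1h1c the only filled point to the right.

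Hist1h2bb, the H2B gene with the highest mean level, had 241 and 238 RPKM at day 7 and 68.8 and 95.9 at day 14 in control culture, and 317 and 267 against 75.9 and 69.3 in LAMZ culture. It fell in both cultures, with a log2 fold change of -1.55 (SE 0.17, adjusted p = 0.00621, limma) in control and -1.99 (SE 0.17, adjusted p = 0.000745) in LAMZ culture. The days did not overlap in either culture.

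Hist1h4n, an H4 gene, went from 175 and 224 RPKM to 78.8 and 80.8 in control and from 269 and 271 to 89.3 and 104 in LAMZ culture, again without overlap (log2 fold change -1.30 and -1.48, SE 0.15 each, limma adjusted p = 0.00647 and 0.00109). Its near copy Hist1h4m had 18 reads in all. The H3 gene Hist1h3c went from 98.2 and 75.6 to 35.8 and 36.6 in control and from 122 and 133 to 45.9 and 43.1 in LAMZ culture, without overlap (log2 fold change -1.23 and -1.495, SE 0.14 each, limma adjusted p = 0.00719 and 0.00097). Of the H2A genes that passed in control culture, Hist1h2ai changed most, at 33.7 and 22.0 against 7.11 and 6.19 RPKM (log2 fold change -1.89, SE 0.22, adjusted p = 0.00702). As 90.1% of its windows occur in other genes, its own share of these reads is uncertain.

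Among the genes that passed the test in control culture, those with the next largest changes included Hist1h4f (-1.70), Hist1h4k (-1.69), Hist1h2bm (-1.39), Hist1h2bh (-1.32) and Hist1h3g (-1.23), on the log2 scale. Among those that passed in LAMZ culture, the largest changes were those of Hist1h2bp (-3.35), Hist1h2bj (-2.58) and Hist1h2bf (-2.42), all of them H2B genes. Leaving aside Hist1h4m, which had no read at day 14, they were followed by Hist1h2bl (-2.26), Hist1h3g (-2.20), Hist1h2bk (-2.17) and Hist1h2ah (-2.08). In the H1 class, Hist1h1b had 86.7 and 85.5 RPKM at day 7 and 41.9 and 50.0 at day 14 in control culture (log2 fold change -0.90, SE 0.14, adjusted p = 0.0175).

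Hist1h1c, which encodes the linker histone H1.2, was the one histone gene called higher at day 14. Its level was 88.6 and 91.1 RPKM at day 7 and 141 and 133 at day 14 in control culture, and 116 and 123 against 153 and 205 in LAMZ culture. The days did not overlap in either culture, with the higher values at day 14. The log2 fold change was 0.60 (SE 0.15, limma adjusted p = 0.0632) in control and 0.56 (SE 0.15, adjusted p = 0.0437) in LAMZ culture, so that it passed the threshold only in the latter, and there in 8 of the 21 alternative settings. Hist1h1c was the only gene of the H1 class with values above 0 in both cultures.

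Of the 63 genes, 5 had a log2 fold change above 0 in both cultures, namely Hist1h1c, Hist1h2bc, Hist2h3c1, Hist3h2a and Hist3h2ba, and these were named after their values were seen. The H2B gene Hist1h2bc stood at 45.4 and 52.6 RPKM at day 7 and 56.9 and 52.9 at day 14 in control culture, and at 49.1 and 49.3 against 48.7 and 57.6 in LAMZ culture (log2 fold change 0.16 and 0.11, SE 0.13 each). Hist3h2a, an H2A gene outside the main clusters, lay between 5.07 and 7.67 RPKM in all 8 libraries. Hist2h3c1 and Hist3h2ba had means of 1.36 and 0.522 RPKM over the 8 libraries.

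The 5 genes were compared in a feature that the choice of the family did not use, the polyadenylation signal AATAAA within the last 40 bases of an annotated transcript. It was present in 13 of the 63 tested genes, and in 4 of the 5 (all but Hist1h2bc, whose annotated transcripts held no stem-loop). The 13 genes with the signal had a median log2 fold change of -0.63 in control and -0.45 in LAMZ culture, and 1 and 3 of them were called lower. These medians include the 4 genes that were named for values above 0, which raises them. The split is therefore not separate from that choice. The 50 genes without it had medians of -0.86 and -1.35, and 23 and 31 were called lower. The 13 genes with the signal include some of low level, such as Hist1h1t (mean 1.02 RPKM), Hist2h3c1 and Hist3h2ba. Changes of such genes are understated on the scale of log2(RPKM + 1), and the sets were not matched for level. The model of Hist1h1c ran 840 bases past its stem-loop and that of Hist3h2a 1643. Others with the signal, such as Hist1h2bp, Hist2h4 and Hist4h4, had values below 0 in both cultures. These are counts on annotated models, with no test, and which form of each mRNA was present was not measured.

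**Figure D3:**
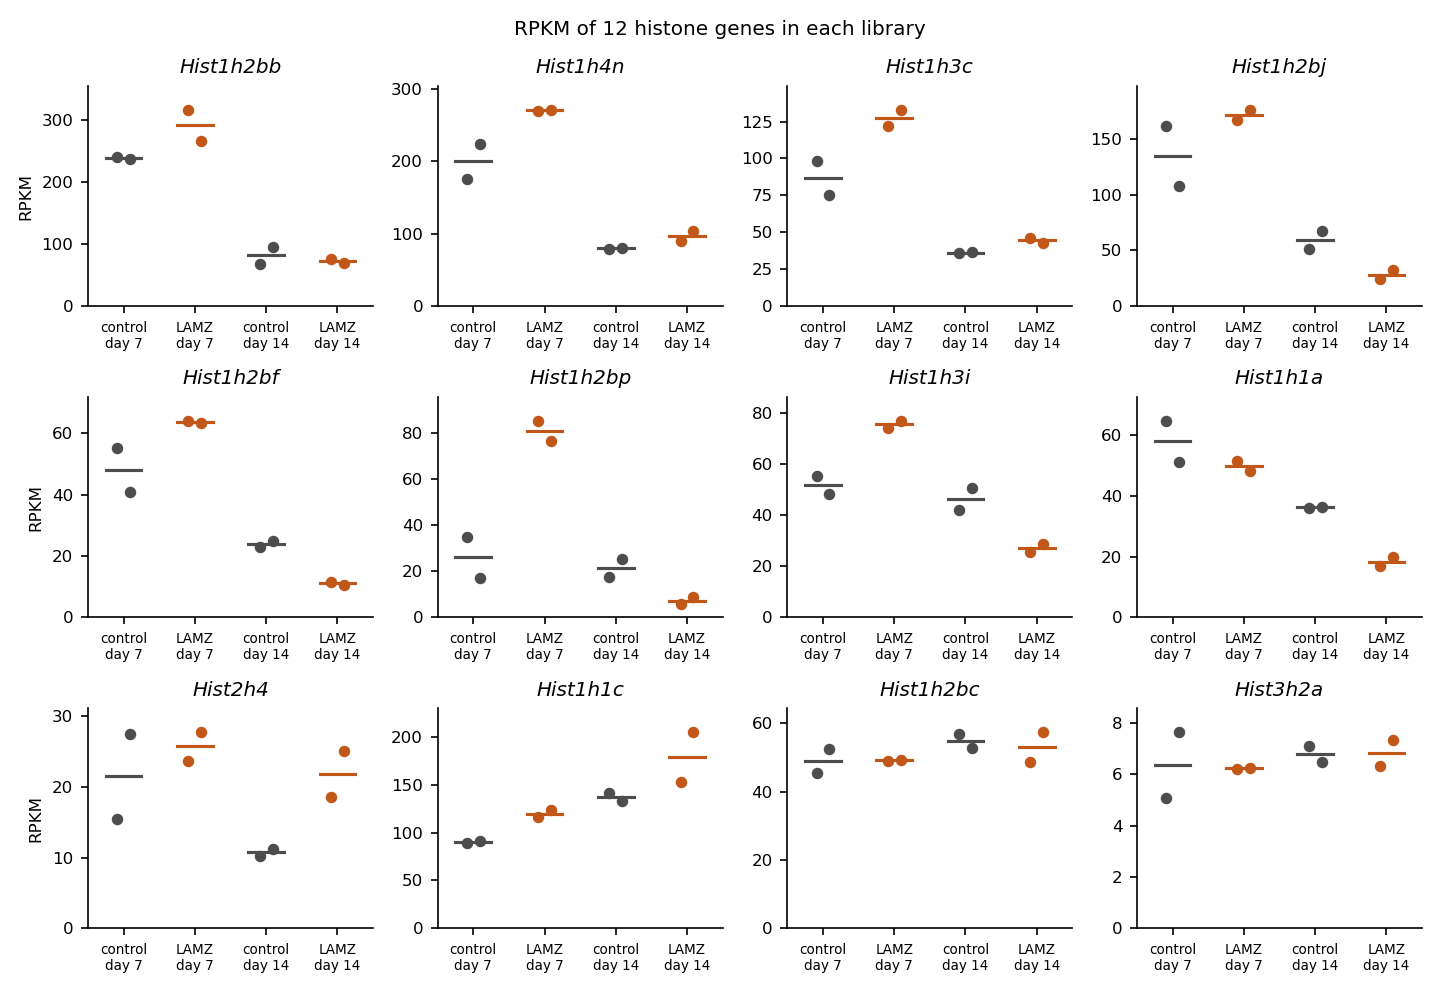
RPKM (vertical axes, from 0) of 12 histone genes in each library, with control in grey, LAMZ in orange and bars for the mean of 2. The top row and Hist1h1a show lower values at day 14 in both cultures, Hist1h2bf, Hist1h2bp and Hist1h3i change order between the cultures from day 7 to day 14, and Hist1h1c is higher at day 14 in both cultures, a difference that passed the test in LAMZ culture only.

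With LAMZ, few histone genes were called at an adjusted p under 0.05. At day 7 their summed RPKM was 1.19 times as high with LAMZ as in control, and at day 14 it was 0.970 times. The libraries did not overlap at day 7, but the log2 ratio turned from 0.25 to -0.052 when libraries were scaled to the same RPKM sum, a sum of which Rn7s1 held 23.3% and 30.3% in the control and 33.7% and 29.9% in the LAMZ libraries. The median log2 fold change of the 63 genes was 0.26 at day 7 and -0.16 at day 14, where the medians of all genes were -0.08 and -0.15. At day 7 the median turned to -0.041 under that scaling, which moved the median of all genes to -0.31.

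At day 7, 4 of the 63 genes were called higher with LAMZ (6.35%, against 4.35% of all genes) and none lower (against 8.49% of all genes). Of these 4, Hist1h4m had reads only in the LAMZ libraries of day 7 and passed the filter through them alone. At an unadjusted p under 0.05 12 were higher (9.49% of all genes) and 0 lower (18.5%), and voom called 8 higher (5.63%) and none lower (10.8%). At day 14, 1 was called higher (1.59%, against 6.96%) and 7 lower (11.1%, against 16%), so that neither share exceeded that of all genes. The LAMZ libraries lay wholly above control for 25 genes at day 7 (20.4% of all genes) and 16 at day 14 (20.1%), and wholly below for 2 (35.9%) and 21 (44.2%). Scaling by the median raised the share of higher calls among all called genes to 53.5% at day 7 and 56.3% at day 14, and called 8 histone genes higher (6.85% of all genes) and 0 lower (5.95%) at day 7 and 7 higher (12.8%) and 6 lower (9.98%) at day 14. The libraries scaled to the same sum gave 2 higher (2.49% of all genes) and 1 lower (26.2%) at day 7 and 0 higher and 26 lower at day 14 (41.3% of the histone genes, where 42.5% of all genes were lower under that scaling). The day 7 calls numbered 7 without replicate 1 of control, 1 without either LAMZ library of day 7 and 2 without either of day 14, and the day 14 calls numbered 5 without replicate 2 of control.

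The 4 genes higher at day 7 were Hist1h2bp, Hist1h3c, Hist1h3i and Hist1h4m. Hist1h2bp, an H2B gene, had 34.9 and 17.2 RPKM in control and 85.4 and 76.4 with LAMZ at day 7 (log2 fold change 1.68, SE 0.33, limma adjusted p = 0.0154). The groups did not overlap. Hist1h3c, with the values given above, was higher by 0.56 (SE 0.14, limma adjusted p = 0.0412). Of the 21 alternative settings, Hist1h3c was called in 7, Hist1h3i in 8, Hist1h2bp in 17 and Hist1h4m in 21.

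Hist1h4m had no read in any control library and 5 and 13 reads with LAMZ at day 7, or 2.92 and 6.21 RPKM, which was at least 2.21-fold higher against a floor of 3 reads per control library. It had no read in any library of day 14, so that in LAMZ culture it was at least 3.25-fold lower than at day 7. It passed the filter only through the LAMZ libraries of day 7. Its calls at day 7, on average and between days in LAMZ culture thus rest on the group that admitted it. In its sequence 89.8% of windows recur in Hist1h4n, which had 494 and 607 reads in the same LAMZ libraries of day 7. The reads of both copies together came to 75.3 and 96.4 CPM (reads divided by sequencing depth alone) in control and 117 and 119 CPM with LAMZ at day 7.

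At day 14 the genes lower with LAMZ were Hist1h1a, Hist1h2ab, Hist1h2bf, Hist1h2bj, Hist1h2bp, Hist1h3i and Hist2h3c2, with log2 fold changes between -0.75 and -1.47. The linker histone gene Hist1h1a had 36.0 and 36.5 RPKM in control and 16.8 and 19.8 with LAMZ (log2 fold change -0.95, SE 0.14, limma adjusted p = 0.00292). Hist1h2bj had 51.5 and 67.8 in control against 24.1 and 32.3 with LAMZ (-1.06, SE 0.23, adjusted p = 0.0133), and Hist1h2ab 41.3 and 38.4 against 21.03 and 24.7 (-0.78, SE 0.17, adjusted p = 0.0158). None of these groups overlapped. Hist2h3c2 stood at 20.6 and 33.0 in control and 14.5 and 9.84 with LAMZ (-1.07, SE 0.29, limma adjusted p = 0.0342). Hist2h3c2 was called in 11 of the 21 alternative settings, and the other genes lower at day 14 in 18 to 21.

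Hist2h4, an H4 gene of the chromosome 3 cluster, was the one gene called higher with LAMZ at day 14, at 10.2 and 11.3 RPKM in control and 18.6 and 25.01 with LAMZ (log2 fold change 0.95, SE 0.25, limma adjusted p = 0.031). It was called in 13 of the 21 alternative settings. Only 1.01% of its windows recur in other genes. At day 7 its values overlapped, with 15.5 and 27.5 in control and 23.6 and 27.8 with LAMZ.

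Averaged over both days, 6 genes were higher with LAMZ (9.12% of all genes) and 1 lower (20.3% of all genes). The higher genes were Hist1h1c (log2 fold change 0.39, SE 0.11), Hist1h3c (0.42, SE 0.10), Hist1h4n (0.36, SE 0.10), Hist2h4 (0.62, SE 0.18) and Hist2h2ab (0.90, SE 0.26), with limma adjusted p from 0.0158 to 0.0354, and Hist1h4m, which had reads only at day 7 and is given above by its bound. The lower gene was Hist1h1a (-0.58, SE 0.10, limma adjusted p = 0.00407), which was called in each of the 20 alternative settings. The higher calls held less often. Hist1h1c and Hist1h4n were called in 10 of these 20 settings each, and Hist2h4 and Hist2h2ab in 12 each. Hist1h3c was called in 17 and Hist1h4m in 18. The calls numbered 13 without replicate 2 of control at day 7, 4 without replicate 1 of LAMZ at day 7 or of control at day 14, and 3 without replicate 2 of LAMZ at either day.

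**Figure D4:**
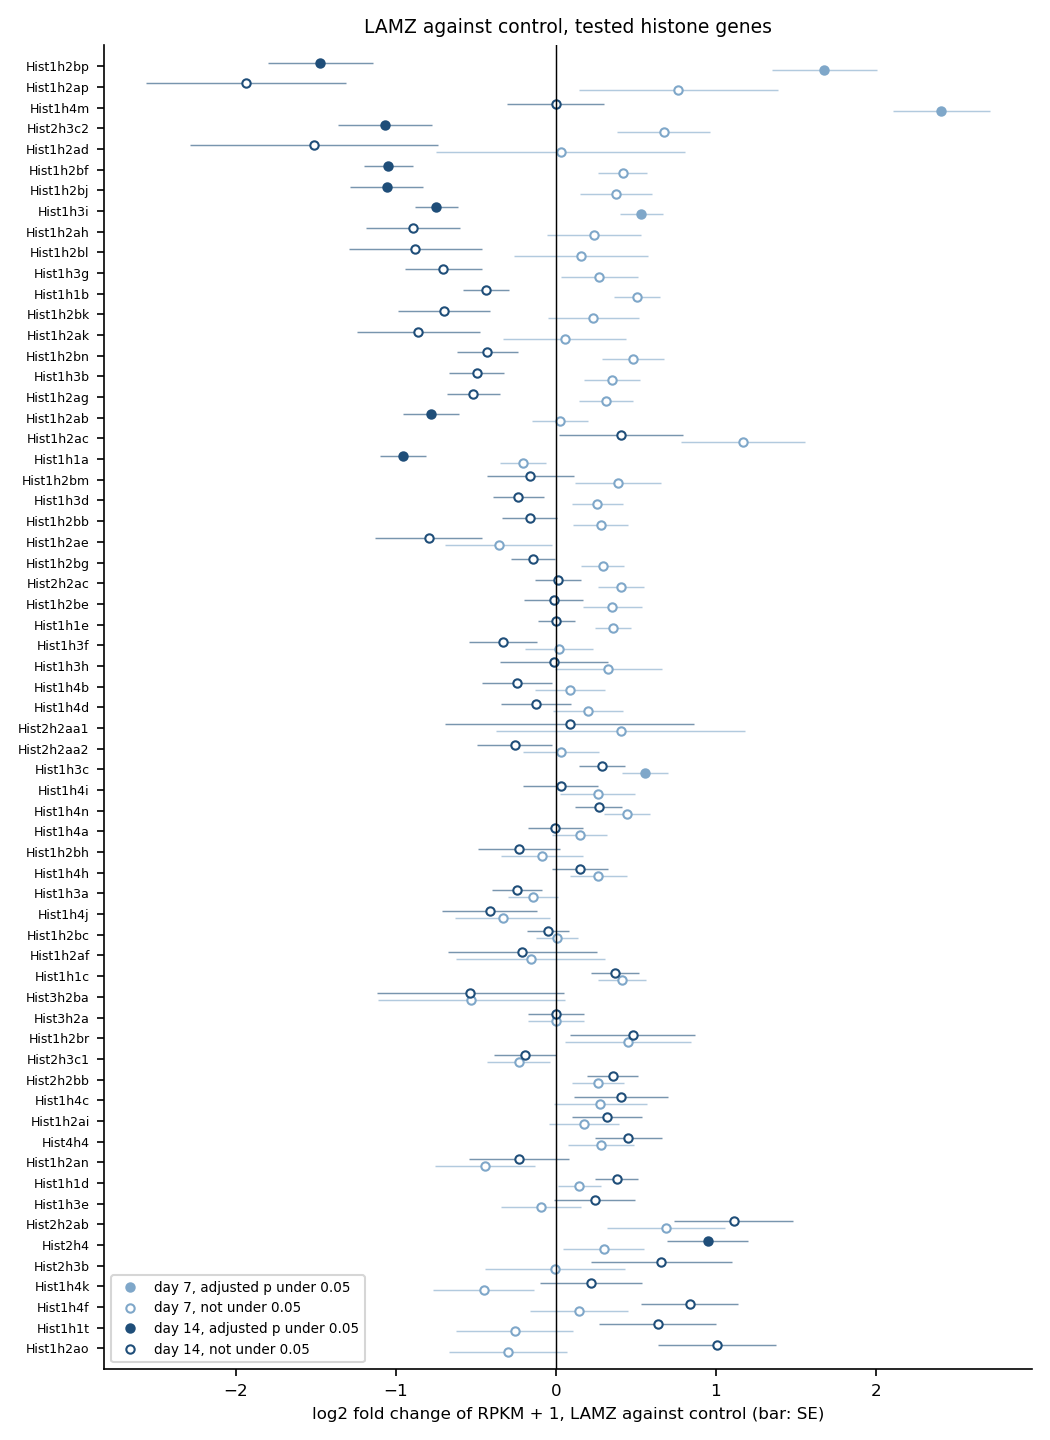
Log2 fold change with LAMZ (horizontal axis; bars, SE) of the 63 tested histone genes at day 7 (light blue) and day 14 (dark blue), ordered by the difference between the days, with filled points for an adjusted p under 0.05. Hist1h2bp at the top lies at 1.68 at day 7 and -1.47 at day 14.

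The difference of the LAMZ effect between the days, which is also the difference of the day effect between the cultures, was tested as an interaction. It passed for 3 of the 63 genes, all with a lower value at day 14 (4.76%, against 0.312% of all genes). In Hist1h2bp the interaction was -3.15 (SE 0.46), in Hist1h2bf -1.46 (SE 0.22) and in Hist1h3i -1.28 (SE 0.19), each with a limma adjusted p of 0.0369. Hist1h2bf had 55.2 and 40.7 RPKM in control and 64.1 and 63.3 with LAMZ at day 7, and 23.0 and 24.9 against 11.5 and 10.7 at day 14. Hist1h3i had 55.5 and 48.5 against 74.2 and 77.1 at day 7, and 42.1 and 50.6 against 25.4 and 28.9 at day 14. In both, the LAMZ libraries lay above the control libraries at day 7 and below them at day 14.

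Without any 1 library the count of such genes was 0 for 7 of the 8 libraries and 2 without replicate 1 of control at day 7. Where it was 0, limma gave 13 to 20 histone genes below 0 (7.1% to 10.8% of all genes) and 0 to 2 above (4.59% to 6.78%) at an unadjusted p under 0.05, and voom with all libraries called 6, all lower (2.24% of all genes). Of the windows of Hist1h3i, 87.6% recur in other genes, and 65.8% and 44.1% of those of Hist1h2bf and Hist1h2bp. The reads of Hist1h3i and its copy Hist1h3h together came to 32.1 and 34.9 CPM in control and 41.0 and 52.8 with LAMZ at day 7, and to 25.9 and 26.8 against 17.5 and 19.0 at day 14, so that the order was the same for the sum. For Hist1h2bf with Hist1h2bg the sums were 117 and 109 against 147 and 135 CPM at day 7. At day 14 they were 52.3 and 64.1 against 48.0 and 47.1, in the same order but closer than for Hist1h2bf alone. For Hist1h2bp with Hist1h2bq they were 24.7 and 13.3 against 60.3 and 53.9 at day 7. At day 14 they were 12.7 and 18.4 against 3.94 and 6.96.

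Other near copies moved in opposite directions. Hist1h2ao and Hist1h2ap, with 93.5% of the windows of the former in the latter, had log2 fold changes with LAMZ of 1.01 and -1.94 at day 14, neither of which passed (adjusted p = 0.0855 and 0.0586, limma). Hist1h2ap had 45 and 38 reads in control and 18 and 5 with LAMZ at day 14, and Hist1h2ao 12 and 20 against 31 and 43. The sum of both was 57 and 58 reads against 49 and 48.

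The genes that process histone mRNA, bind free histones or act in S phase were examined beside the histone genes. Of 39 tested S phase genes, 11 were lower at day 14 in control (2.4% of all genes) and 20 in LAMZ culture (9.26%). None was higher (2.46% and 5.1% of all genes), and the medians were -0.54 and -0.70. Rrm2, a subunit of the reductase that makes deoxynucleotides, had 29.3 and 19.3 RPKM at day 7 and 7.80 and 12.9 at day 14 in control culture (log2 fold change -1.17, SE 0.24, limma adjusted p = 0.0397). Pcna, the sliding clamp of the replication fork, had 24.1 and 24.3 against 19.5 and 16.2 in control (-0.42, adjusted p = 0.0938) and 22.5 and 24.5 against 13.2 and 13.9 in LAMZ culture (-0.75, adjusted p = 0.00786). Gins4, a subunit of the replicative helicase, changed by -0.11 and -0.14, neither of which passed. All 20 mitosis genes were lower at day 14 in LAMZ culture (9.26% of all genes) and 15 in control (2.4%), among them Cdc20, Ccnb2 and Kif20a. The list medians were -1.52 and -1.02.

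With LAMZ, 2 of the 39 S phase genes were lower at day 7 and 5 at day 14, and none was higher, which did not exceed the shares of all genes that were lower (8.49% and 16%). The genes called included Fen1, the flap endonuclease (-0.81 at day 7, limma adjusted p = 0.0144), Lig1, a DNA ligase (-0.78 at day 14, adjusted p = 0.0222), Rrm1 (-0.74, adjusted p = 0.0156) and Tk1, a thymidine kinase (-0.63, adjusted p = 0.0186). Averaged over both days, 9 of the 39 S phase genes were lower and none was higher. This share was slightly above the 20.3% of all genes that were lower on average. Of the 20 mitosis genes none was called at day 7 and 6 were lower at day 14 (16% of all genes), such as Foxm1 (-0.78), Bub1 (-0.75), Mki67 (-0.74) and Ccna2 (-0.74). At day 7 the median log2 fold change with LAMZ was 0.26 for the histone genes, -0.11 for the S phase genes and 0.12 for the mitosis genes.

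**Figure D5:**
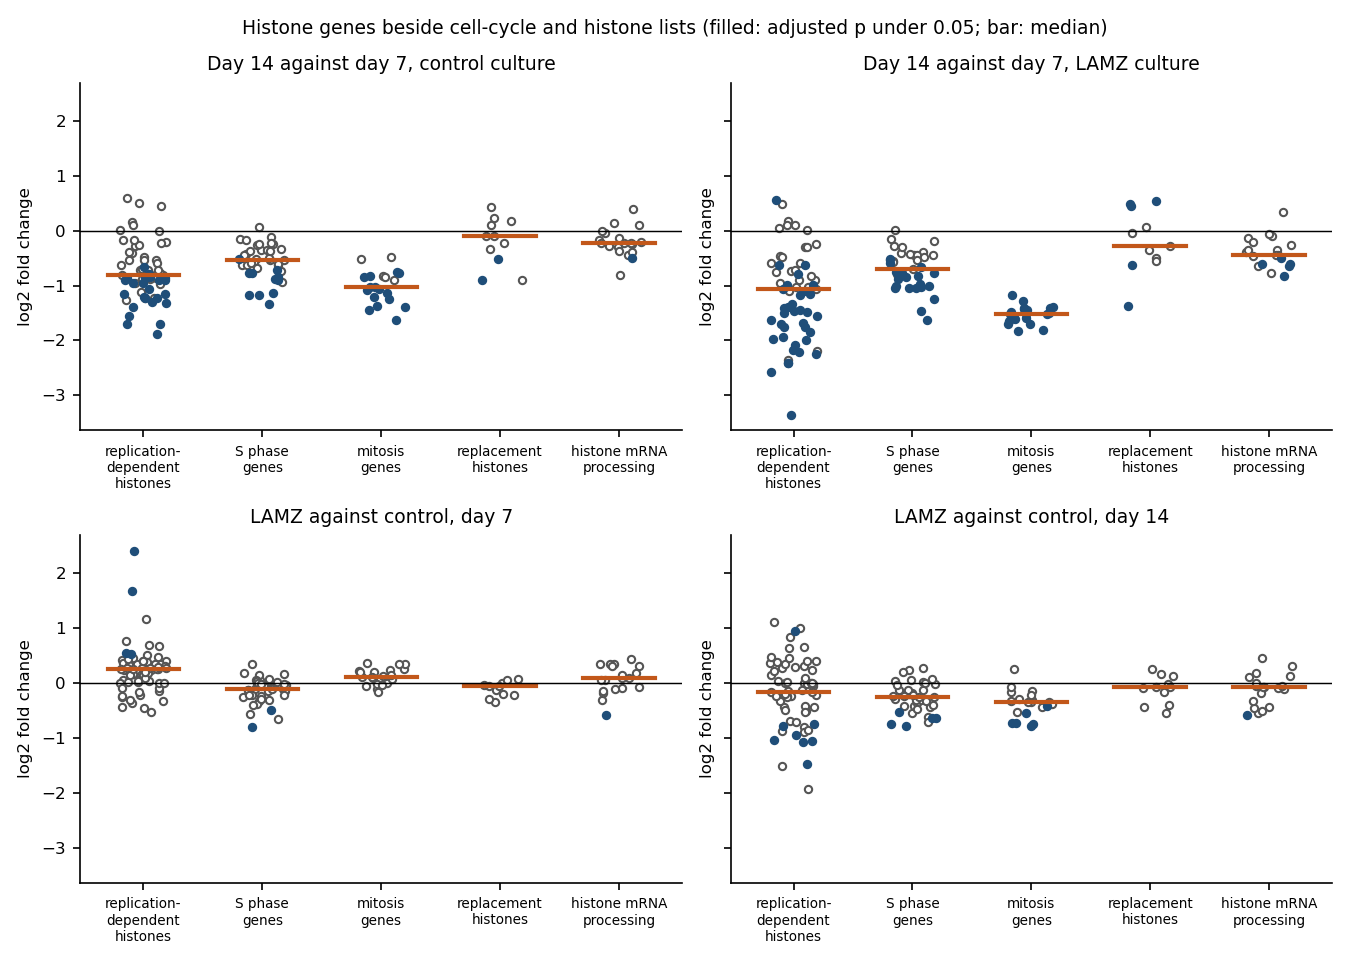
Log2 fold change (vertical axis) of each tested gene of the histone clusters and of 4 lists (points; filled, adjusted p under 0.05; orange bar, median) in 4 comparisons. In both day comparisons the histone, S phase and mitosis genes lie mostly below 0, while replacement histones have medians of -0.10 and -0.27.

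Replacement histones were called in both directions. Of 11 tested, 2 were lower at day 14 in control culture (H2afz and H2afx), and 3 were higher (H1f0, H3f3b and H2afj) and 2 lower (H2afx and Cenpa) in LAMZ culture. Among all genes 2.4% were lower in control culture, and 5.1% were higher and 9.26% lower in LAMZ culture. H1f0, the linker histone of non-dividing cells, had 51.5 and 44.9 RPKM at day 7 and 66.0 and 64.5 at day 14 in control (log2 fold change 0.43, limma adjusted p = 0.0729) and 50.3 and 50.1 against 75.7 and 71.4 in LAMZ culture (0.54, adjusted p = 0.0186). H3f3b, which encodes H3.3, had 43.2 and 42.8 against 60.8 and 61.0 in LAMZ culture (0.49, adjusted p = 0.0236), and H3f3a changed by 0.18 and 0.08, neither of which passed. H2afx was called lower in both cultures. No replacement histone was called with LAMZ at either day.

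Of 19 tested genes of histone mRNA processing, 1 was lower at day 14 in control (2.4% of all genes) and 5 in LAMZ culture (9.26%). Slbp, the stem-loop binding protein, had 3.97 and 2.71 RPKM at day 7 and 2.70 and 2.58 at day 14 in control (log2 fold change -0.24, limma adjusted p = 0.528) and 3.47 and 3.41 against 1.92 and 1.15 in LAMZ culture (-0.83, adjusted p = 0.0277). Npat, the activator of histone transcription, was lower with LAMZ averaged over both days (log2 fold change -0.37, adjusted p = 0.0392). Srrt, of the cap-binding complex, was lower with LAMZ at both days (-0.57 and -0.58). The Sm proteins Snrpb, Snrpf and Snrpg were not called in any comparison. Of 19 histone chaperones, 1 was lower at day 14 in control (Hjurp) and 3 in LAMZ culture (Rbbp7, Hjurp and Asf1b). Rbbp7 was also lower with LAMZ at day 14 (-0.45, adjusted p = 0.0406) and Cabin1 at day 7 (-0.43, adjusted p = 0.046), while Ssrp1 and Nap1l4 were not called. With LAMZ, 1 of 19 genes in each of the 2 lists was lower at day 7, 1 at day 14 and 2 on average, and none was higher. These counts did not exceed the shares of all genes that were lower (8.49%, 16% and 20.3%).

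Outside the lists, genes whose log2 level closely followed the summed histone level over the 8 libraries included Prr11 (Pearson's r = 0.987), Jmjd6 (0.986), Acat2 (0.985) and Srsf7 (0.985). These are among the highest of all tested genes and are given as a description, since the 8 libraries fall into the day groups.

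Markers of other cells moved with the groups as well. All osteoblast markers were present, and 6 of 10 were higher with LAMZ at each day. The 15 tested macrophage markers summed to 472 and 614 RPKM in control at day 7 and to 1152 and 1193 at day 14, against 7.36 to 9.43 in the LAMZ libraries, where 8 of them were at 0 in each library and C1qa, C1qb and C1qc were at 0 in all 4. Of these 15 markers, 12 were higher at day 14 in control culture and none was called in LAMZ culture by limma, and 13 and 14 were lower with LAMZ at day 7 and day 14. Of 6 chondrocyte markers, 4 were higher with LAMZ at each day (Acan, Col2a1, Col9a1 and Matn3) and 1, Sox9, was lower at day 14, and 2 and 4 of 5 adipocyte markers, such as Lpl and Cebpa, were lower. Of 6 muscle markers, Acta1 and Des passed the filter and were higher with LAMZ at day 14, and 1 endothelial marker of 6, Tek, passed the filter and was lower. The part of these cells in the histone levels was not tested.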

How the data were processed

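Total RNA of 8 libraries (4 groups of 2, grouped by the sample labels) was sequenced by the authors on an Ion Proton and analysed in CLC Genomics Workbench. The genome build was mm10 per the submitters' processing notes, and the annotation and versions are not given in the sources used here. The deposited values are RPKM per gene symbol, scaled by the authors to gene length and mapped reads, with no scaling between libraries stated. Mapped reads per library (3463538 to 5832101) were recovered from genes at 1 read, since RPKM times length then gave whole numbers; 95.1% to 96.4% of the low values checked came out whole within 0.01 reads. Depth limits precision, and intervals and floors (3 reads) cover counting error only.

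The 12514 genes that reached 1 RPKM in 2 or more of the 8 libraries entered a limma fit of log2(RPKM + 1), run with limma 3.58.1 in R 4.3.3 (4 group means, trended prior, 4 residual degrees of freedom). P-values were adjusted by Benjamini-Hochberg over all 12514 genes, two-sided, with a threshold of 0.05. Fold changes on this scale understate the change of low genes. The fit was tested on simulated data. The exact permutation test of 2 against 2 libraries cannot go below p = 0.333 and was not used. Replicates differed by more than sampling noise in every group.

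Alternatives covered the pseudocount, the filter, 4 scalings, the prior trend, the replicate block, the libraries fitted and leaving out each library. A fit by limma-voom on the recovered whole reads was chosen after seeing the data. The histone genes and all gene lists were chosen with earlier results of these data known. Named were the 3 highest genes of each class, every gene past the threshold (the 8 largest changes where more passed), the 3 highest genes of each other list with up to 4 called with LAMZ, Slbp, and the 5 genes most like the summed level, of which 1 is not reported here. Stem-loops and windows were read from GENCODE M21 transcripts, and promoters from RefSeq (GRCm38.p6).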

Additional observations from a re-analysis of the deposited data

Results flagged for a closer look

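The LAMZ effect differed between day 14 and day 7, by the interaction term, in Hist1h2bp (difference of log2 fold changes -3.15), Hist1h2bf (-1.46) and Hist1h3i (-1.28). Each had an adjusted p of 0.0369 by limma, with LAMZ above control in both libraries of day 7 and below in both of day 14. No cause was tested. The directions held in all 20 alternative settings, while the calls were lost in 11, 11 and 13 of them. Leaving out any 1 library but replicate 1 of control at day 7 left 0 calls.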

How the results depend on the processing

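As deposited, 4, 8 and 7 histone genes were called with LAMZ at day 7, at day 14 and on average, 3 for the interaction, and 24 and 35 between days in control and LAMZ culture. No gene reversed in a comparison in which it was named as called; genes not called there were not followed. The last count held throughout (24 to 46). The others moved by over 1.5 times as follows, and the cause was not tested. At day 7 the count was 1 without a filter (more genes tested), 8 with median centring, 7 with trimmed mean scaling, 2 without a trend, 1 on the 4 libraries alone and 8 by voom. At day 14 it was 5 without a filter, 26 with equal RPKM sums (all lower, 41.3% against 42.5% of all genes) and 13 with median centring. On average it was 3 without a filter, 23 with equal sums (34.9% lower, against 53.1% of all genes) and 13 with median centring or trimmed mean scaling. For the interaction it was 1 at a pseudocount of 0.1, 0 without a filter or without a trend (15 genes below 0 at an unadjusted p under 0.05 in each, by limma) and 6 by voom. In control culture it was 9 without a filter and 0 on the 4 libraries alone (38 lower and 1 higher at an unadjusted p under 0.05, by limma; voom called 32). Leaving out single libraries gave 1 to 7, 5 to 9, 3 to 13, 0 to 2, 2 to 20 and 24 to 38 calls; the lone library was assumed to vary like the other groups. Same-numbered replicates deviated with correlations of -0.017 at day 7 and 0.016 at day 14 and share only a number. The replicate block gave 2 at day 7, 13 across all groups or 14 within each day at day 14, and 0 or 1 for the interaction (16 below 0 unadjusted in each); it moved no other count by over 1.5 times. The log2 ratio of the sums turned to -0.052 at day 7 with equal sums, to 0.14 and 0.10 at day 14 with median centring and trimmed mean scaling (-0.144 to 0.0525 without single libraries), and to -0.23 and -0.023 on average with equal sums and quantile normalization. The medians turned to -0.041 at day 7 and -0.29 on average with equal sums. With Hist1h4m at its bound the medians stayed at 0.26 at day 7 and -1.06 between days. With 2 libraries a group at this depth, genes with few reads or near copies limit what can be called.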
